A study of Mus musculus with 12 samples.

Results

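The genes described here encode heat shock proteins, J-domain (DNAJ) proteins, the cytosolic chaperonin CCT and the heat shock factors. A probe was a member when its annotated symbol began with Hspa, Hspb, Hspd, Hspe, Hsph, Hsp90, Hsf, Dnaja, Dnajb or Dnajc, was one of the Cct genes from Cct2 to Cct8, or was Tcp1. The array named 113 such probes for 70 genes. A probe counted as detected at a detection p under 0.01 on 2 or more arrays. That left 83 probes for 59 genes, among 17436 detected probes and 9609 detected named genes of the whole array. The 11 members under that limit were Cct6b, Dnajb13, Dnajb3, Dnajb5, Dnajb8, Dnajc5g, Dnajc6, Dnajc9, Hspa12a, Hspa13 and Hspb3. Hspa14, Hsp90ab1, Hsf1, Dnaja4 and Dnajb11 had no probe of that name in the annotation used and were not analysed here.

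RNA came from TRAMP-C cells, a male line grown from a prostate tumour of TRAMP mice of the C57BL6 strain, which carry a viral oncogene driven by a prostate promoter. Per the labels the cells were otherwise wild-type. All were nucleofected 48 h before treatment, with empty pcDNA (control), FOXA2, HIF-1a or FOXA2 and HIF-1a together, and then spent 12 h in normoxia or in hypoxia at 1% oxygen. For every one of the 4 transfections there was 1 array of normoxic and there were 2 of hypoxic cells, 12 arrays in all. Every normoxia array carried replicate number 1. The labels do not say that replicates were separate cultures, so p-values cover no more than the scatter of these arrays, part or all of it possibly technical. The arrays read whole cultures, so a change in the share of cells that express a gene and a change in RNA per cell cannot be told apart.

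Molecular chaperones bind unfolded protein and help it to fold. HSP70 proteins work in cycles of ATP hydrolysis that J-proteins start and that nucleotide exchange factors, among them the HSP110 proteins, end. HSP90 takes over late-folding clients, the ring-shaped chaperonins CCT (cytosol) and HSP60 with HSP10 (mitochondria) enclose them, and small heat shock proteins hold them without ATP. Under heat or oxidative stress, heat shock factor 1 induces part of this set through repeats of the heat shock element. The endoplasmic reticulum has its own set, induced by the unfolded protein response. Hypoxia works mainly through hypoxia-inducible factors, which bind a short core sequence called the hypoxia response element.

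The arrays had mean intensities of 298 to 559, with 15322 to 17182 probes detected. The brightest array, FOXA2+HIF-1a hypoxia replicate 1, was the one at 559. On the log2 intensity scale used throughout, Foxa2 lay at 9.27 to 10.98 on the 6 arrays given the FOXA2 plasmid and at 6.14 to 7.07 on the other 6. Hif1a lay at 11.98 to 13.18 with its plasmid and at 9.06 to 9.64 without. Among prostate epithelial markers Krt8 was near background (5.19 to 5.93, detected on 8 arrays), Cdh1 lay at 5.11 to 7.08, and Krt18 and Krt5 were under the detection limit. The mesenchymal genes Acta2 (13.40 to 14.17) and Col1a1 (11.68 to 13.19) were bright. Of neuroendocrine markers Ncam1 and Eno2 were detected on all 12 arrays and rose in hypoxia, by 0.52 ± 0.12 (standard error) and 0.95 ± 0.20, while Syp was under the limit. The part of these markers in the chaperone results was not tested. The HIF targets Vegfa, Car9 and Ankrd37 rose by 1.73, 2.11 and 4.71. HIF-1a hypoxia replicate 1 stood apart. On it 35 of 9609 genes lay more than 2 log2 units below every other array, 3 of them members, so results that rest on it are given with and without it.

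Upstream sequences were read for 57 of the 70 members from RefSeq windows of GRCm38.p6 that run from 250 bases before to 50 bases after a transcript start. A pair of heat shock units was searched as GAANNTTC or TTCNNGAA, a triple as GAANNTTCNNGAA or TTCNNGAANNTTC, and the hypoxia response core as ACGTG or GCGTG, each on both strands. A triple contains pairs. Of the 57 members, 18 (31.6%) held a pair, against 17.0% of 27025 genes with a window, and 4 (7.02%) held a triple, against 0.662%. The 4 were Hspd1, Hspe1, Hsph1 and Dnajb6, where Hspd1 and Hspe1 share the same stretch, counted for both genes. The hypoxia core was found for 73.7% of the members and 46.7% of all genes. These matches describe letters in a window and do not show binding. The stretches below carry the triple between Hspe1 and Hspd1, the triple of Dnajb6, the pair shared by the near-identical genes Hspa1a and Hspa1b, and the hypoxia cores of Hspbap1. Capitals mark the heat shock units or, in Hspbap1, the hypoxia cores.
Hspe1, chr1:55088054-55088083, plus strand: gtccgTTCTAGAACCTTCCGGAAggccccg
Dnajb6, chr5:29735798-29735897, plus strand: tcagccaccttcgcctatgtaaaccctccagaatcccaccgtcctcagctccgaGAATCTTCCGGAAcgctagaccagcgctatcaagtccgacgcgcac
Hspa1a, chr17:34972187-34972286, minus strand: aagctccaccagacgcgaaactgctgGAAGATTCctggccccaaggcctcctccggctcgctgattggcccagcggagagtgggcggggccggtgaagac
Hspbap1, chr16:35770286-35770385, plus strand: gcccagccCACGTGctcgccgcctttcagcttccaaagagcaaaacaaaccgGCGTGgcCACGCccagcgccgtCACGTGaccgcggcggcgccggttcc
Among members, Hspd1 neighbours Hspe1 on chromosome 1 in the RefSeq gene table, Hspa1b neighbours Hspa1a on chromosome 17, and Hspb2 neighbours the small heat shock gene Cryab on chromosome 9.

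The 8 hypoxia arrays were set against the 4 normoxia arrays, with transfection in the fit, to ask how 12 h of low oxygen changed the chaperone genes. Of the 59 members, 8 rose, 8 fell and 43 did not pass an adjusted p of 0.05 (limma, Benjamini-Hochberg over all genes). Over all 9609 genes tested 30.4% were called, 14.4% higher and 15.9% lower, against 13.6% of the members in each direction, so the number of members called was near that of genes in general. The members that rose were Hspb2, Dnajc5, Hspa4l, Dnajb2, Hspa1b, Dnajb9, Dnajb1 and Hsp90b1. Those that fell were Hspbap1, Dnajc30, Hspa4, Dnaja2, Dnajc2, Cct4, Hspd1 and Hspe1. All 8 hypoxia arrays lay above all 4 normoxia arrays for 5 members (8.47%, against 11.3% of all genes) and below them for 11 (18.6%, against 13.2%). Taken within transfections, both hypoxia arrays lay above their own normoxia array in all 4 for 7 members (11.9%, against 15.6% of all genes) and below it for 13 (22%, against 18.1%). The median difference of the members was −0.12 and that of all genes −0.02. No member changed by more than 1.07 in either direction.

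**Figure D1:**
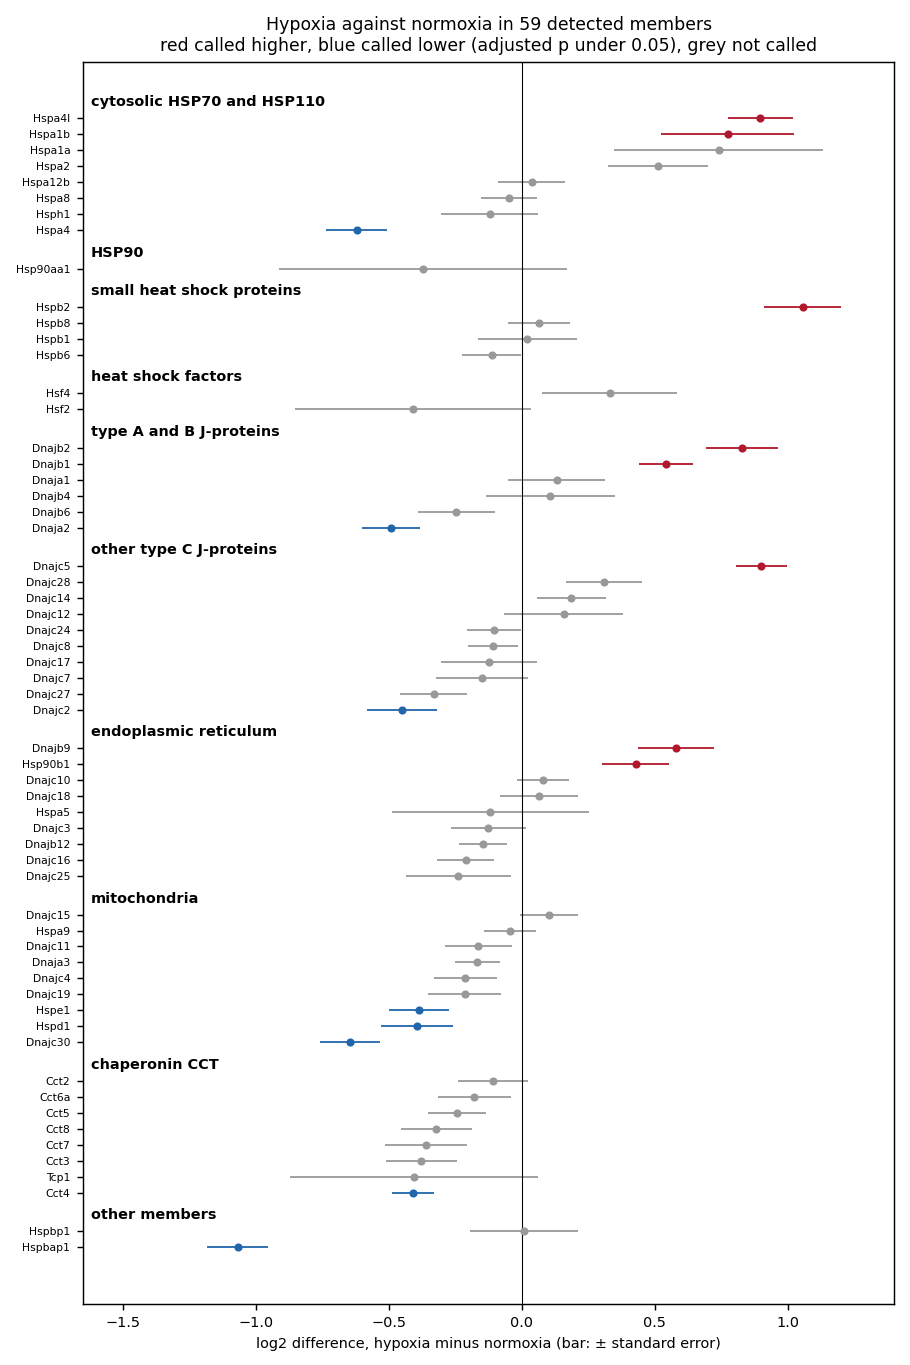
Log2 difference between hypoxia and normoxia for the 59 detected members, grouped by role, with bars of ± 1 standard error; red members were called higher, blue lower and grey not called (adjusted p of 0.05). All 8 chaperonin CCT subunits lie left of 0.

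The cytosolic HSP70 and HSP110 group split in direction. Of its 8 measured members 2 rose, 1 fell and 5 did not pass, with a median of 0.27. Over all genes 14.4% were called higher and 15.9% lower. Hspa4l and Hspa4, related HSP110-type nucleotide exchange factors, went opposite ways. Hspa4l lay at 7.59 to 7.97 in normoxia (control 7.84, FOXA2 7.59, HIF-1a 7.97, both 7.60) and at 8.43, 8.69 and 8.89 (lowest, median and highest of 8) in hypoxia. No hypoxia array reached down to the normoxia arrays. The rise was 0.90 ± 0.12 (1.86-fold, adjusted p = 0.000406), and a dimmer second probe gave 0.78. Hspa4 lay at 11.51, 11.56, 11.39 and 11.59 in the same order of normoxia arrays and at 10.67 to 11.15 in hypoxia, median 10.88. Its groups did not overlap either, and it fell by 0.62 ± 0.11 (1.54-fold, adjusted p = 0.00222).

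Of the stress-induced HSP70 genes Hspa1a and Hspa1b, only Hspa1a was called between the hypoxia replicates, in a comparison given below. The 2 genes are neighbours on chromosome 17, and 296 of the 300 bases of their windows are identical, the printed 100 bases included (Hspa1b, chr17:34959269-34959368, minus strand). Whether each probe reads only its own gene was not tested. Hspa1b lay at 7.33, 7.54, 7.61 and 7.50 in normoxia (control, FOXA2, HIF-1a, both), at 8.05, 8.57, 7.80 and 7.25 on hypoxia replicate 1, and at 8.58, 8.56, 8.66 and 8.68 on hypoxia replicate 2. Replicate 2 was above every normoxia array, and the FOXA2+HIF-1a array of replicate 1 was below all of them. The pooled rise was 0.77 ± 0.25 (1.71-fold, adjusted p = 0.0373). Blocked on replicate number it was 0.42 and was not called (adjusted p = 0.124; the 14 alternative settings ranged from 1.65e-05 to 0.919). Hspa1a was detected on 2 of 4 normoxia and 6 of 8 hypoxia arrays. It lay at 5.30, 5.10, 5.41 and 5.01 in normoxia, at 5.01, 5.09, 5.50 and 5.24 on hypoxia replicate 1 and at 6.70, 6.53, 7.003 and 6.48 on replicate 2. Replicate 1 overlapped normoxia throughout and replicate 2 stood clear of both. The pooled difference of 0.74 ± 0.39 was not called (adjusted p = 0.179).

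The remaining cytosolic HSP70 members were not called. Hspa2, an HSP70 best known from testis, differed by 0.51 ± 0.19 (adjusted p = 0.0606) and was at 8.92 to 9.06 in normoxia and 8.92 to 10.05 in hypoxia. The constitutive HSC70 gene Hspa8 lay at 13.52 to 13.59 in normoxia and 13.35 to 13.80 in hypoxia (−0.05 ± 0.10). Hsph1, the HSP110 protein HSP105, differed by −0.12 ± 0.18. Hspa12b, a distant HSP70 relative, differed by 0.04 ± 0.12.

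HSP90 was represented in the cytosol by the inducible Hsp90aa1 alone. Its brighter probe lay at 11.90, 12.14, 11.99 and 11.99 in normoxia. In hypoxia it lay at 12.29, 12.52, 8.38 and 11.99 on replicate 1 and at 12.03, 12.03, 11.97 and 11.85 on replicate 2. Only HIF-1a hypoxia replicate 1 departed from the rest, by over 3 log2 units. The difference was −0.37 ± 0.54 (adjusted p = 0.638) with that array and 0.08 (adjusted p = 0.621) without it. On the second probe of the gene the same array read 10.29, inside the range of the others (9.54 to 10.96), and the difference was 0.03 ± 0.16.

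Among small heat shock proteins 1 of 4 measured members rose and 3 did not pass, beside 14.4% of all genes called higher. Hspb2, a muscle small heat shock protein that binds the myotonic dystrophy kinase, lay at 5.77, 5.59, 5.997 and 5.83 in normoxia. In hypoxia it lay at 6.93, 6.23, 6.93 and 6.87 on replicate 1 and at 6.75, 6.58, 6.97 and 7.57 on replicate 2. Every hypoxia array was above every normoxia array although the signal was low, and the rise of 1.05 ± 0.14 (2.08-fold, adjusted p = 0.000406) was the largest of the members. Its neighbour Cryab, the alpha-B crystallin gene, went from 9.38 to 10.17 in normoxia to 11.35 to 12.16 in hypoxia, a rise of 2.01 ± 0.17 (adjusted p = 1.25e-05). Hspb1 (HSP27) differed by 0.02 ± 0.19, Hspb8, which works with the co-chaperone Bag3, by 0.06 ± 0.12, and Hspb6 (HSP20) by −0.11 ± 0.11.

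**Figure D2:**
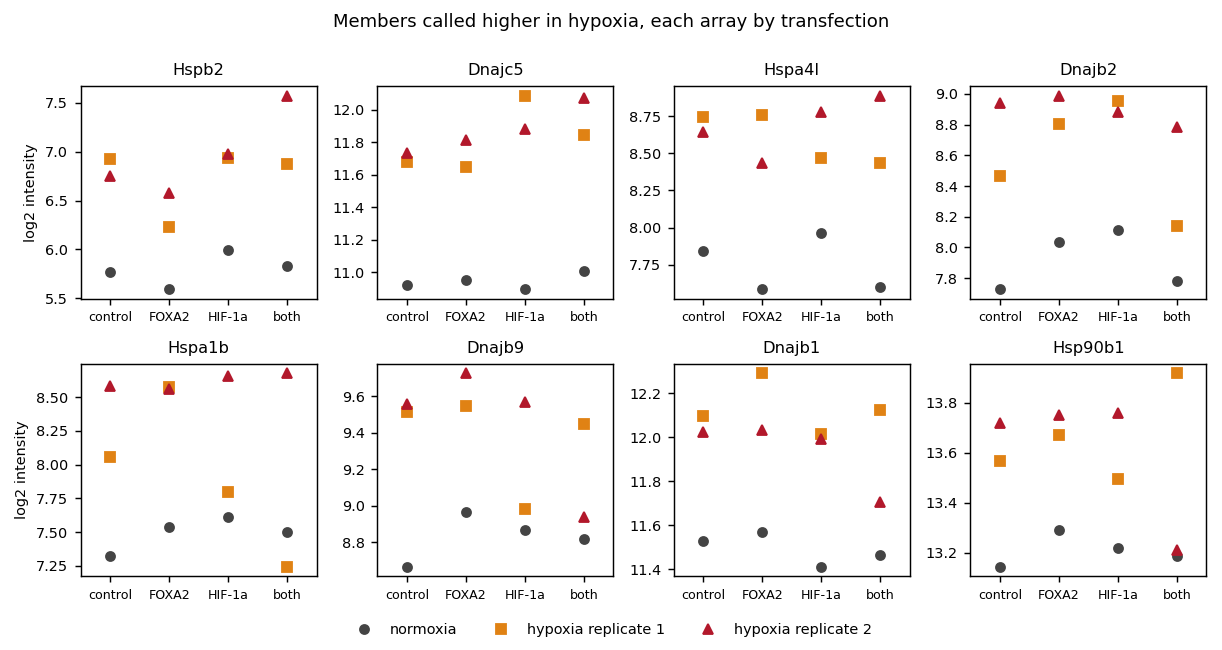
Log2 intensity of the 8 members called higher in hypoxia on each array, by transfection; circles are normoxia arrays, squares hypoxia replicate 1 and triangles hypoxia replicate 2. Hspb2, Dnajc5, Hspa4l, Dnajb2 and Dnajb1 separate fully by oxygen, and Hspa1b, Dnajb9 and Hsp90b1 have hypoxia arrays near or among the normoxia arrays.

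Type A and type B J-proteins, the general partners of HSP70, gave 2 members that rose, 1 that fell and 3 that did not pass. The shares of all genes were 14.4% called higher and 15.9% called lower. Dnajb1, the stress-induced HSP40, lay at 11.53, 11.57, 11.41 and 11.46 in normoxia and at 11.71 to 12.29 in hypoxia, median 12.03. The groups did not overlap, and it rose by 0.54 ± 0.10 (1.45-fold, adjusted p = 0.0025). Dnajb2, which carries ubiquitin-interacting motifs and passes clients to the proteasome, lay at 7.73, 8.04, 8.11 and 7.78 in normoxia and at 8.14 to 8.99 in hypoxia, median 8.84. It rose by 0.83 ± 0.13 (1.78-fold, adjusted p = 0.00121), again without overlap. Dnaja2, an HSC70 partner, lay at 10.51, 10.51, 10.56 and 10.47 in normoxia and at 9.58 to 10.26 in hypoxia, median 10.02. It fell by 0.49 ± 0.11 (1.41-fold, adjusted p = 0.00611), its second probe gave −0.60, and the lowest array was HIF-1a hypoxia replicate 1, without which the value was −0.43 (adjusted p = 0.00392).

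Dnaja1 was detected on 2 hypoxia arrays and no normoxia array, but its groups overlapped near background (4.60 to 5.22 in normoxia, 4.69 to 5.55 in hypoxia). Its difference of 0.13 ± 0.18 was not called (limma adjusted p = 0.623). Dnajb4 differed by 0.11 ± 0.24. Dnajb6, a suppressor of protein aggregation whose window holds a triple heat shock unit, differed by −0.25 ± 0.14 on its brightest probe (adjusted p = 0.222) and by −0.14 (adjusted p = 0.194) without HIF-1a hypoxia replicate 1. Its other detected probes gave 0.00, 0.63 and 0.27, and the probe at 0.63 was called (adjusted p = 0.0103 over all detected probes). The 4 probes therefore disagreed, and no direction is given for Dnajb6.

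In the other type C J-proteins 1 of 10 rose, 1 fell and 8 did not pass, beside 14.4% of all genes called higher and 15.9% lower. Dnajc5, the cysteine string protein that protects synaptic vesicle proteins together with HSC70, lay at 10.92, 10.95, 10.90 and 11.01 in normoxia. It lay at 11.68, 11.65, 12.09 and 11.84 on hypoxia replicate 1 and at 11.74, 11.82, 11.88 and 12.07 on replicate 2. The normoxia arrays sat within 0.11 of each other and every hypoxia array was clear of them. The rise was 0.90 ± 0.10 (1.87-fold, adjusted p = 7.43e-05), and its second probe gave 0.73. Dnajc2, a J-protein of the ribosome-associated complex, lay at 11.41 to 11.60 in normoxia and 10.67 to 11.34 in hypoxia. It fell by 0.45 ± 0.13 (1.37-fold, adjusted p = 0.0231) and by 0.47 on its second probe. With the replicate block the value was −0.31 and was not called (adjusted p = 0.0713; range over 14 settings 0.00154 to 0.962). Dnajc27, a small GTPase with a J domain, was at −0.33 ± 0.13 (adjusted p = 0.0684), and Dnajc24, of diphthamide synthesis, at −0.11 ± 0.10.

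Endoplasmic reticulum members split without a shared direction. Of 9, 2 rose, 0 fell and 7 did not pass, and 4 lay above 0 and 5 below. Over all genes 14.4% were called higher, 15.9% were called lower and 47.6% lay above 0. Dnajb9, the ERdj4 protein that restrains the stress sensor IRE1, lay at 8.67, 8.96, 8.87 and 8.82 in normoxia and at 8.94 to 9.72 in hypoxia, median 9.53. The lowest hypoxia array was just inside the normoxia range. It rose by 0.58 ± 0.14 (1.49-fold, adjusted p = 0.0106), and a second probe gave 0.46. Hsp90b1, the reticulum HSP90 called GRP94, lay at 13.14, 13.29, 13.22 and 13.19 in normoxia and at 13.21 to 13.92 in hypoxia, median 13.70. It rose by 0.43 ± 0.13 (1.34-fold, adjusted p = 0.0254), with FOXA2+HIF-1a hypoxia replicate 2 down among the normoxia arrays. With the slide as a block Hsp90b1 was 0.37 and was not called (adjusted p = 0.0632; range over 14 settings 0.0146 to 0.944), and both calls were lost with median scaling in place of quantile normalization (0.50 for Dnajb9 and 0.40 for Hsp90b1).

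Hspa5, the reticulum HSP70 called BiP, lay at 9.35, 9.43, 9.64 and 9.31 in normoxia and at 7.26 on HIF-1a hypoxia replicate 1, with the other hypoxia arrays at 9.32 to 10.19. Its difference was −0.12 ± 0.37 with that array and 0.18 (adjusted p = 0.317) without it. The disulphide reductase Dnajc10 differed by 0.08 ± 0.10, and Dnajc3, an inhibitor of the kinase PERK, by −0.13 ± 0.14. Dnajc16 was not called at −0.21 ± 0.11, and its other probes gave 0.37 (called) and −0.25.

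Mitochondrial chaperones lay mostly below 0. Of 9 measured members 0 rose, 3 fell and 6 did not pass, 8 of the 9 were below 0, and the median was −0.21. Over all genes 15.9% were called lower and 47.6% lay above 0. With median scaling Dnajc30 alone of the 3 was still called (adjusted p = 0.0187), while Hspd1 was at −0.40 (adjusted p = 0.145) and Hspe1 at −0.38 (adjusted p = 0.12). Dnajc30, a J-protein that associates with ATP synthase, lay at 9.40, 9.46, 9.55 and 9.35 in normoxia and at 8.24 to 9.08 in hypoxia, median 8.86. It fell by 0.65 ± 0.11 (1.56-fold, adjusted p = 0.0017) with no overlap. Hspd1 (HSP60) and Hspe1 (HSP10), the 2 parts of the mitochondrial chaperonin, are transcribed from neighbouring starts. The printed Hspe1 stretch occurs on the other strand in the window of 1 of the 2 Hspd1 starts. Hspe1 lay at 12.32, 12.46, 12.40 and 12.41 in normoxia, at 12.31, 12.30, 11.64 and 11.93 on hypoxia replicate 1 and at 12.06, 12.08, 11.94 and 11.84 on replicate 2. All hypoxia arrays were below normoxia, the control and FOXA2 arrays of replicate 1 narrowly so. It fell by 0.39 ± 0.11 (1.31-fold, adjusted p = 0.0232).

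Hspd1 lay at 13.46, 13.42, 13.37 and 13.47 in normoxia, at 13.30, 13.26, 12.90 and 13.25 on hypoxia replicate 1 and at 13.10, 12.96, 12.96 and 12.53 on replicate 2. Hypoxia was again lower on all 8 arrays. The fall of 0.40 ± 0.14 (1.32-fold) only just passed (adjusted p = 0.046), and its second probe gave −0.13. With the replicate block the value was −0.25 and was not called (adjusted p = 0.152; range over 14 settings 0.0037 to 0.841). Hspa9 (mortalin), the HSP70 of the matrix and of protein import, was at 13.83 to 13.94 in normoxia and 13.57 to 13.97 in hypoxia (−0.05 ± 0.10). Its J-protein Dnaja3 differed by −0.17 ± 0.08 (adjusted p = 0.154), with every hypoxia array below the normoxia arrays. The import motor members Dnajc19 and Dnajc15 differed by −0.21 ± 0.14 and 0.10 ± 0.11. Dnajc11, of the cristae-organising machinery, differed by −0.16 ± 0.13 on its brighter probe and by −0.98 on the other, which was called.

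**Figure D3:**
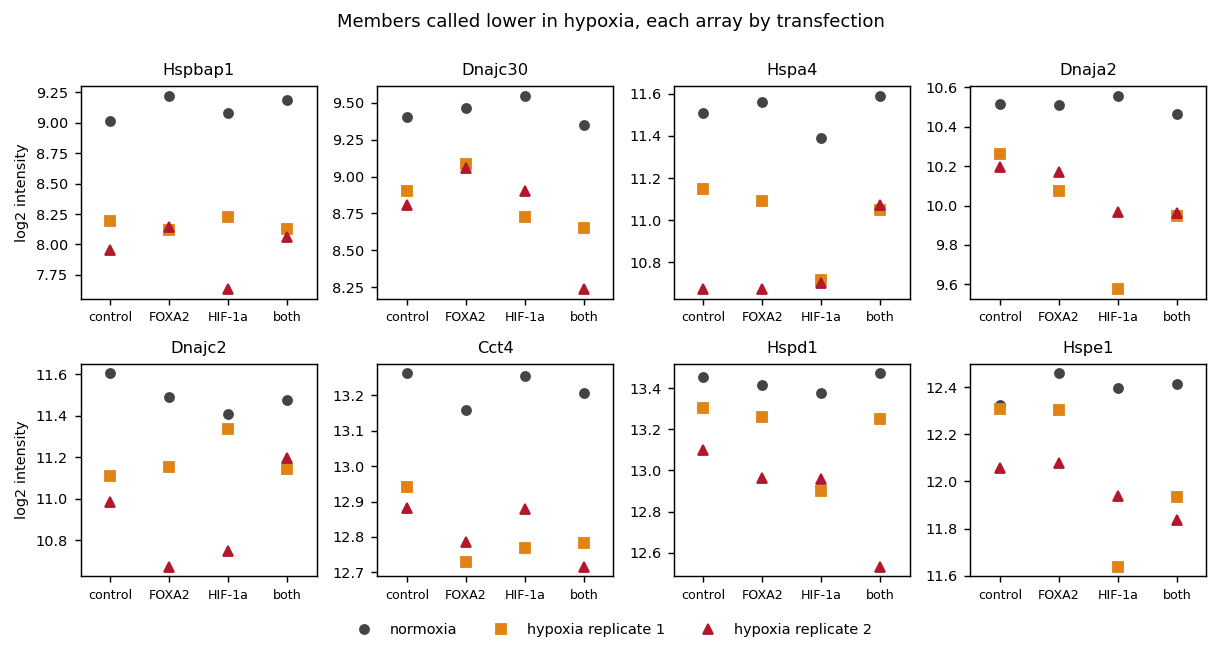
Log2 intensity of the 8 members called lower in hypoxia on each array, by transfection, with the same symbols (circles normoxia, squares hypoxia replicate 1, triangles replicate 2). In all 8 panels every hypoxia array lies below every normoxia array, with the smallest gaps for Hspe1, Hspd1 and Dnajc2.

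The chaperonin CCT, which folds actin and tubulin, was measured in all 8 subunits. All 8 differences were below 0 (median −0.34), where 47.6% of all genes lay above 0. Of the 8, 0 were called higher, 1 was called lower and 7 were not called, beside 14.4% of all genes called higher and 15.9% lower. Cct4 lay at 13.26, 13.16, 13.26 and 13.21 in normoxia, at 12.94, 12.73, 12.77 and 12.78 on hypoxia replicate 1 and at 12.88, 12.79, 12.88 and 12.72 on replicate 2. The hypoxia arrays were tightly grouped and clear of normoxia, and Cct4 fell by 0.41 ± 0.08 (1.33-fold, adjusted p = 0.0031). Cct3 differed by −0.38 ± 0.13 (adjusted p = 0.052), Cct7 by −0.36 ± 0.15, Cct8 by −0.32 ± 0.13, Cct5 by −0.24 ± 0.11, Cct6a by −0.18 ± 0.14 and Cct2 by −0.11 ± 0.13. Cct3 and Cct8 had no overlap between oxygen groups although they were not called. All 8 were also below 0 without background correction, with median scaling, in the authors' processed table and with the replicate or slide block. Without HIF-1a hypoxia replicate 1 all 8 stayed below 0, but Tcp1 only at −0.04, and the median was −0.24. There 2 were called lower, where 33.9% of all genes were called in either direction and 47.9% lay above 0. On the replicate 2 arrays alone 7 were below 0 and 6 were called lower, where 52.9% of all genes were called in either direction.

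Tcp1, the first named CCT subunit, rested on 1 array. It lay at 12.51, 12.66, 12.68 and 12.60 in normoxia and at 12.74, 12.45, 9.85 and 12.65 on hypoxia replicate 1, with 9.85 again on the HIF-1a array. On replicate 2 it lay at 12.78, 12.77, 12.90 and 11.51. The difference was −0.40 ± 0.47 with HIF-1a hypoxia replicate 1 and −0.04 (adjusted p = 0.901) without it. A dimmer probe gave 0.29 ± 0.16, and there the HIF-1a array read 9.30 against 9.46 to 10.11 on the others.

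The 2 measured heat shock factors were not called. Hsf2 lay at 7.21 to 7.57 in normoxia and 6.998 to 7.46 in hypoxia apart from 4.47 on HIF-1a hypoxia replicate 1. Its difference was −0.41 ± 0.44 with that array and −0.03 (adjusted p = 0.812) without it. Hsf4, a factor of the lens, was detected on 2 arrays, both in hypoxia with FOXA2 and HIF-1a together.

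**Figure D4:**
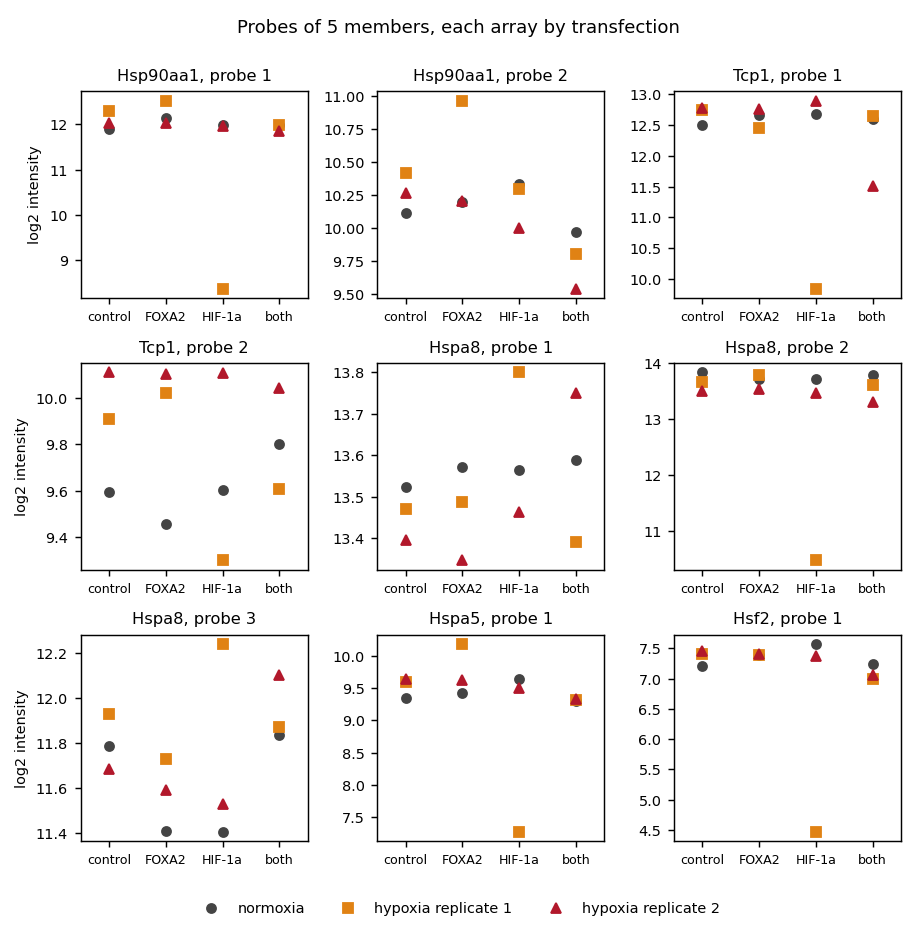
Log2 intensity of 9 probes of Hsp90aa1, Tcp1, Hspa8, Hspa5 and Hsf2 on each array, by transfection; circles are normoxia arrays, squares hypoxia replicate 1 and triangles hypoxia replicate 2. On HIF-1a hypoxia replicate 1 probe 1 of Hsp90aa1 and Tcp1, probe 2 of Hspa8 and the probes of Hspa5 and Hsf2 fall far below the rest, while probe 2 of Hsp90aa1 and probes 1 and 3 of Hspa8 do not.

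Hspa8 showed the same split between probes of 1 gene. Probe 2 read 10.48 on HIF-1a hypoxia replicate 1 and 13.30 to 13.84 on the other arrays, while probes 1 and 3 read 13.80 and 12.24 there, each the highest of the 12 arrays. Without that array 17 members were called in hypoxia (33.9% of all genes), 15 of them among the 16. Hspd1 was lost (−0.39, adjusted p = 0.06), and Cct3 and Dnajc28 were gained.

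Hspbap1, chosen by its symbol, is not a chaperone but a Jumonji-domain protein that binds HSP27. It lay at 9.01, 9.22, 9.08 and 9.19 in normoxia, at 8.19, 8.12, 8.23 and 8.13 on hypoxia replicate 1 and at 7.95, 8.15, 7.63 and 8.06 on replicate 2. Hypoxia was lower by more than the whole spread of either group, and the fall of 1.07 ± 0.12 (2.1-fold, adjusted p = 7.8e-05) was the largest among the members. Its window, printed above in part, holds 7 hypoxia core matches, where a palindromic CACGTG counts on both strands, and 92 of 27025 genes hold 7 or more. Hspbp1, a nucleotide exchange factor of HSP70, differed by 0.01 ± 0.20.

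Matches to the heat shock units and to the hypoxia core were also counted by response. Of the 6 called higher that had a window 0 held a triple and 1 a pair. Of the 5 called lower with a window 2 held a triple, Hspd1 and Hspe1. These 2 share the same stretch, read on opposite strands, so it is counted for both. Among all 57 members with a window 31.6% held a pair and 7.02% a triple. Among all genes with a window the shares were 17.0% and 0.662%. The hypoxia core was found for 4 of the 6 called higher and for all 5 called lower, which include Hspd1 and Hspe1 with overlapping windows. It was found for 73.7% of the members and 46.7% of all genes.

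Co-chaperones outside the naming rule were described from a list of 30 genes, all measured. Of these 2 rose, 6 fell and the other 22 did not pass (median −0.08). Over all genes 14.4% were called higher and 15.9% lower, the shares to set beside each list in this paragraph. The receptor of mitochondrial protein import Tomm70a fell by 0.77 ± 0.15, and the HSP90 partners Fkbp5, Cdc37, Ppid and Aarsd1 fell by 0.56, 0.55, 0.54 and 0.52. Bag4 fell by 0.31. Bag2, an HSP70 exchange factor, rose by 0.50 and Pih1d1, an adaptor of the R2TP complex, by 0.43. Stip1, which bridges HSP70 and HSP90, differed by 0.16 ± 0.15, Ahsa1, an activator of HSP90, by −0.23 ± 0.16, and Bag3 by 0.25 ± 0.15. Of 8 measured CCT partners Pfdn2, a prefoldin subunit, fell (−0.57 ± 0.14) and 7 did not pass. Of 9 mitochondrial partners the protease Lonp1 rose (1.05 ± 0.14), Clpp and Grpel2 fell (−0.46 and −0.30), and 6 did not pass. Of 6 other genes known as targets of heat shock factor 1, Cryab, Hmox1 (2.01 and 1.72) and Dedd2 (0.54) rose, 0 fell and 3 did not pass, among them the collagen chaperone Serpinh1 (0.08 ± 0.10). Hmox1 and Cryab also answer to other stress pathways.

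The array names open with 1 of 2 numbers, which were taken here as 2 slides, although the names do not call them slides. Slide 1 held the normoxia and replicate 1 arrays of the control, FOXA2 and HIF-1a transfections. With the slide as a block 14 members were called (28.3% of all genes), 13 of them among the 16. Hsp90b1, Hspa1b (0.59) and Hspd1 (−0.36) were lost and Dnajc19 was gained. On slide 1 alone, 3 arrays against 3, 12 were called (22% of genes), all among the 16. Dnajb9 (0.51), Dnajc2 (−0.30), Hspd1 (−0.26) and Hspe1 (−0.31) were lost there. On slide 2 alone, with 1 normoxia array, 0 were called. With the replicate number as a block 13 were called (30.1% of genes), all among the 16, and Dnajc2, Hspa1b and Hspd1 were lost. Because every normoxia array carried number 1, the difference from that fit equals the one on the replicate 1 arrays alone (Hspb2 0.94 in both). The alternative settings therefore overlap and are not separate checks. Hspb2, Dnajc5, Hspa4l, Dnajb2, Dnajb1, Hspbap1, Dnajc30, Hspa4, Dnaja2 and Cct4 were called in 13 of 14 alternative settings, all but slide 2 alone, and whichever array was left out.

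The other 6 calls were less steady when single arrays were left out. Hspa1b lost its call without any one of 9 of the 12 arrays (0.65 to 0.88) and kept it only without the replicate 1 hypoxia array of the control, HIF-1a or FOXA2+HIF-1a cells. Hspd1 lost its call without any one of 8 (−0.44 to −0.33), all but the replicate 1 hypoxia arrays of control, FOXA2 and FOXA2+HIF-1a cells and FOXA2+HIF-1a hypoxia replicate 2. Hsp90b1 lost it without control hypoxia replicate 2 or any one normoxia array (0.40 to 0.44). Dnajc2 did so without the control, FOXA2 or HIF-1a normoxia array (−0.48 to −0.41), and Hspe1 without the FOXA2, HIF-1a or FOXA2+HIF-1a normoxia array (−0.43 to −0.31). Dnajb9 lost it without the control or FOXA2 normoxia array (0.48 and 0.55).

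The hypoxia replicates were compared directly, 4 arrays against 4 with transfection in the fit, because every normoxia array carried number 1. Of the 59 members 5 were called (8.47%), against 16.5% of all genes, 3 of them higher on replicate 2 (8.44% of all genes) and 2 lower (8.01%). Hspa1a was higher on replicate 2 by 1.47 ± 0.12 (adjusted p = 0.000775), with all 4 replicate 2 arrays above all 4 of replicate 1. Against normoxia it was 0.01 with the replicate block and 1.47 on the replicate 2 arrays alone. Hspa2 was higher on replicate 2 by 0.58 ± 0.12, at 9.66 to 10.05 against 8.92 to 9.56. Dnajc12, a J-protein that assists aromatic amino acid hydroxylases, was higher by 0.73 ± 0.14, at 5.69 to 6.15 against 4.81 to 5.46. Hsph1 was lower by 0.59 ± 0.12, at 11.09 to 11.38 against 11.66 to 12.06. Dnajc25, a membrane J-protein, was lower by 0.64 ± 0.12, at 6.94 to 7.19 against 7.62 to 7.84. None of the 5 overlapped between replicates. Hspa1b was higher on replicate 2 by 0.70 ± 0.21 (adjusted p = 0.0575). Cdh1 was higher on replicate 2 by 1.42 ± 0.16 and Eno2 by 0.64 ± 0.14, while Car9 and Cryab were lower by 0.52 and 0.49. What part these differences between replicates have in the member values was not tested.

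**Figure D5:**
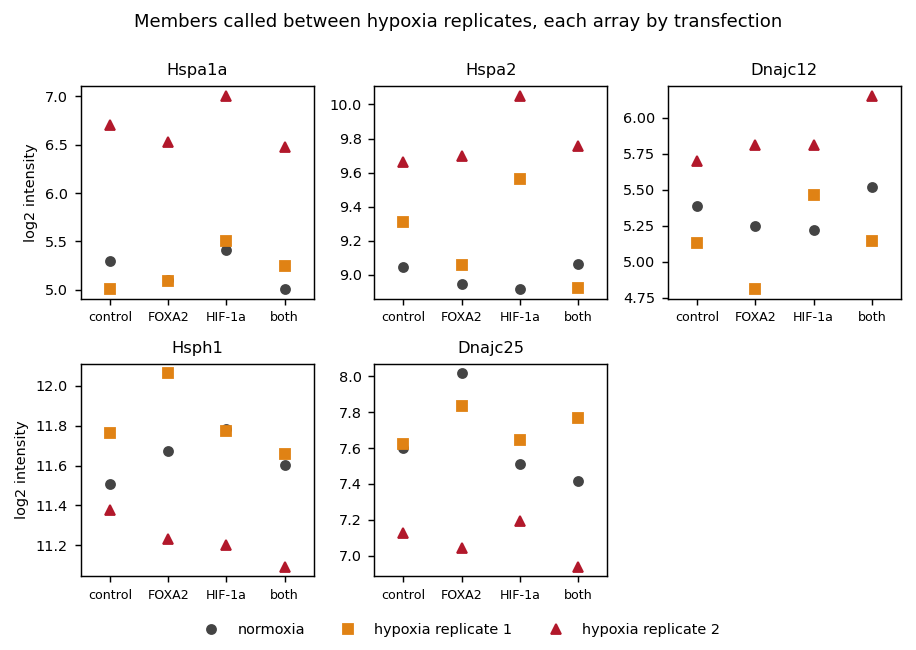
Log2 intensity of the 5 members called between the hypoxia replicates on each array, by transfection; circles are normoxia arrays, squares hypoxia replicate 1 and triangles hypoxia replicate 2. For Hspa1a replicate 1 lies with normoxia and replicate 2 at 6.48 to 7.003, and for Hsph1 and Dnajc25 replicate 2 lies lowest in each transfection.

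Within each transfection the hypoxia response rested on 2 arrays against 1, and a lone normoxia array was assumed to vary like the other groups. No member was called in control, FOXA2, HIF-1a or FOXA2+HIF-1a cells, where 0.656%, 0.687%, 0.76% and 0.614% of all genes were. At an unadjusted p of 0.05 the counts were 6, 7, 10 and 6 of 59 members, beside 9.24%, 9.46%, 12.4% and 13.2% of all genes. Hspb2 differed by 1.06 in control, 0.81 in FOXA2, 0.96 in HIF-1a and 1.39 in FOXA2+HIF-1a cells (each ± 0.32). Dnajc5 differed by 0.78, 0.78, 1.09 and 0.95 in the same order (± 0.23), and Hspbap1 by −0.94, −1.09, −1.15 and −1.09 (± 0.28). The test for a difference of these responses between transfections called 0 members and 0 of all genes. An unadjusted p under 0.05 was found for 0 members and 0.177% of all genes.

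Plasmids were compared to ask whether FOXA2 or HIF-1a moved chaperone genes. In hypoxia, FOXA2 against control, HIF-1a against control, both against control and the interaction of the 2 factors each called 0 members and 0 genes in all (0%), by limma. Unadjusted, 0, 2, 2 and 1 of 59 members had a p under 0.05, beside 0.219%, 0.853%, 4.5% and 2.53% of all genes. The standard error of a member in these comparisons of 2 arrays with 2 was 0.26 at the median (0.36 for the interaction), against 0.13 in the pooled hypoxia comparison. Over all 12 arrays, 6 with a plasmid against 6 without, 0 members were called for FOXA2 (0.0208% of genes) and 0 for HIF-1a (0.0104%). For FOXA2 0 members and 0.885% of all genes had an unadjusted p under 0.05. For HIF-1a 4 of 59 members and 5.15% of all genes did. The 4 were Hspb2 at 0.39 ± 0.15, Cct5 at −0.27 ± 0.11, Hspe1 at −0.23 ± 0.10 and Cct7 at −0.31 ± 0.14, all with an adjusted p of 0.796.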

How the data were processed

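Illumina Mouse-6 BeadChips measured RNA on 12 arrays. The authors deposited a table of linear, non-normalized probe intensity and, per the file headers, a detection p-value beside each intensity. The authors also deposited a processed intensity table, which held the 26415 probes whose detection p-value fell under 0.1 on any array and no others; its normalization is not stated in the sources used here, and it was tried as an alternative. There were 0 unused columns of array values.

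Intensities were corrected with neqc of limma 3.58.1 (R 4.3.3; background from detection p-values, offset 16), quantile normalized and taken to log2, a scale computed here from the deposited intensities. Probes detected at a p under 0.01 on 2 or more arrays were kept. Symbols came from the platform annotation, and the detected probe with the highest mean stood for its gene. Levels of different probes were not tested against each other, and words such as bright, dimmer or near background only describe their signal. Tests used lmFit and eBayes with Benjamini-Hochberg adjustment over all 9609 genes. The hypoxia fit held transfection and oxygen, the contrasts within hypoxia and within transfections a mean per group, and the plasmid fits oxygen and both plasmids. Values after ± are standard errors.

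The members and lists were chosen with earlier results of these data known. Named were a fixed set of members, up to 15 called members in each direction, up to 5 with the smallest p elsewhere and up to 8 co-chaperones. Replicate numbers come from the labels, and slides were inferred from the number that opens each array name. Deviations of same-numbered hypoxia arrays from their group means correlated in all 6 pairs of transfections (0.286 to 0.782), so same-numbered arrays shared part of their scatter. In control, FOXA2 and HIF-1a cells the replicate number is also the slide, and the effects of number and slide cannot be told apart there. Both FOXA2+HIF-1a hypoxia arrays lay on slide 2, and their correlations with the other transfections were 0.490, 0.514 and 0.286. The pooled hypoxia fit held no replicate block, and fits with that block are given beside it. The tests were tried on simulated data whose scatter was independent between arrays. In the pooled hypoxia test a log2 change of 0.5 was called for 16% of the changed genes and a change of 1 for 93%. For FOXA2+HIF-1a against control in hypoxia, 2 arrays against 2, these were 2% and 25%, and a change of 2 was called for 90%. Changes of the size seen in most members could therefore be missed in the plasmid comparisons within hypoxia. The number of arrays limits the precision.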

Additional observations from a re-analysis of the deposited data

Results flagged for a closer look

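In groups of 4 normoxia or 8 hypoxia arrays, the highest or lowest array of a member was compared with the others by Dixon's gap test; chance marks about 1 in 20 groups, and 12 of 118 were marked. On HIF-1a hypoxia replicate 1 these were Hsf2 at 4.47, Hsp90aa1 at 8.38, Dnajb6 at 9.27, Hspa5 at 7.26, Tcp1 at 9.85 and Dnaja2 at 9.58, each below the other 7 hypoxia arrays. The gap was smallest for Dnaja2, where the others lay at 9.95 to 10.26, and next smallest for Dnajb6 (10.07 to 10.35). On FOXA2+HIF-1a hypoxia replicate 1, the brightest array, Hsf4 read 6.78 and Hspbp1 6.67, both above the others. Hspbap1 read 7.63 on HIF-1a hypoxia replicate 2. In normoxia Cct5 read 10.24 on the FOXA2+HIF-1a array against 10.36 on the other 3, Dnajc17 read 5.51 on the control array and Cct7 read 8.83 on the HIF-1a array.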

How the results depend on the processing

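For the pooled hypoxia comparison, 8 members called higher became 0 on slide 2 alone (1 residual degree of freedom) and 13 on the hypoxia replicate 2 arrays alone. The 8 called lower became 5 on slide 1 alone, 0 on slide 2 alone, 5 on the hypoxia replicate 1 arrays alone, 16 on those of replicate 2 and 5 with a mean per group; of all genes 27.7% were called on replicate 1 alone and 52.9% on replicate 2 alone. Leaving out single arrays gave 5 to 10 higher and 5 to 10 lower; the counts of 5 came without the control (higher), FOXA2 (both) or HIF-1a (lower) normoxia array. The replicate block, which fits a shift between the replicate numbers, left 7 higher and 6 lower and raised the HIF-1a cell count from 0 to 1. Without HIF-1a hypoxia replicate 2, which leaves replicate 1 alone, 3 members were called for hypoxia in HIF-1a cells, 3 for HIF-1a against control and 2 for the interaction, each 0 otherwise (ranges 0 to 3, 0 to 3 and 0 to 2). Of the 5 members called between replicates, 1 was left with median scaling and 2 to 6 when single arrays were left out (2 without either FOXA2 hypoxia array). Median scaling put 40.3% of all genes above 0 in hypoxia, against 47.6%. Over settings other than left-out arrays, 479 values of single members kept their side of the threshold, 41 lost the call, 11 gained it and 0 called values changed sign; the cause was not tested. Of the values not called, 29 (13 members) turned sign, such as Hsph1 (0.17 with the replicate block), Dnajb4 (−0.21 there), Dnajb6 (0.16 as the mean of its probes), Hspa1a (−0.07 on slide 1) and, on replicate 2, Hspa5 (0.10) and Cct2 (0.07). Probes near background, such as Hspa1a, Dnaja1 and Hsf4, have the least support.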
